A study of Mus musculus with 5 samples.

Results

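The genes described here are 10 markers of oligodendrocyte progenitor cells, mainly surface and matrix ones: Pdgfra, Gpr17, Cspg4, Cspg5, Ptprz1, Lhfpl3, Pcdh15, Vcan, Tnr and Rlbp1. They form a set list, chosen with earlier results of these data known. They make up 10 of 21755 protein-coding genes annotated on the 20 chromosomes that carried peaks. For each gene, every peak of the zinc finger transcription factor ZFP24 (also called ZFP191) was taken whose centre lay within 100 kb of a transcript start or inside the gene. Under that rule 18 peaks were found, 15 from progenitors (OPC) and 3 from oligodendrocytes (OLG), at 8 of the 10 genes.

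ZFP24 was mapped by chromatin immunoprecipitation and sequencing in wild-type C57BL/6 mouse brain cells of postnatal day 7, purified by immunopanning. The OLG were OPC that had then spent 5 days in differentiation medium, which lacked PDGF and contained 40 ng/ml triiodothyronine, a thyroid hormone. Zfp191-null OPC and OLG and a pooled input of both genotypes and both stages served as controls, which makes 5 libraries with 1 library per group. The values are 2 lists of positions, 4643 peaks in OPC and 1752 in OLG, with no score or read count, so the depth is unknown and no difference between the stages has a replicate check. The lists hold no RNA values either, so the identity of the cells and the expression of these genes were not analysed here.

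Progenitors of the oligodendrocyte lineage divide in response to PDGF, spread through the brain and stop expressing their surface markers as they mature into myelin-forming cells. PDGFRA is the receptor that receives the PDGF signal, and GPR17 is a G protein-coupled receptor that marks cells on their way to differentiation. CSPG4 and CSPG5 are membrane chondroitin sulphate proteoglycans, PTPRZ1 is a receptor phosphatase that carries the same sugar chains, and VCAN and TNR are secreted proteins of the brain matrix. ZFP24 is needed for myelination and is known to bind tandem repeats of TCAT.

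A choice of 8 peaks is shown, both of Ptprz1 and examples at Pdgfra, Cspg4, Tnr, Lhfpl3 and Rlbp1, to let the letters be read beside the repeat search described further on. Each is the whole deposited interval on the plus strand of GRCm38.p6, 5′ to 3′, with every TCAT or its reverse complement ATGA in capitals.
Ptprz1 OPC peak at the promoter, chr6:22875057-22875265: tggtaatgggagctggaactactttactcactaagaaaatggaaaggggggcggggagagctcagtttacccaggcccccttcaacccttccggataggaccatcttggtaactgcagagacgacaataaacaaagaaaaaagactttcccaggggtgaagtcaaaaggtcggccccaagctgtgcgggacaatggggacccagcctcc
Ptprz1 OPC peak upstream, chr6:22834534-22834742: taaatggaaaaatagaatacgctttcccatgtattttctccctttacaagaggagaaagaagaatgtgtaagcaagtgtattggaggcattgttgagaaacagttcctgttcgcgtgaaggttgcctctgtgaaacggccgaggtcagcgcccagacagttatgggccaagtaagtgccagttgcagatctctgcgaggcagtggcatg
Pdgfra OPC peak, chr5:75238178-75238386: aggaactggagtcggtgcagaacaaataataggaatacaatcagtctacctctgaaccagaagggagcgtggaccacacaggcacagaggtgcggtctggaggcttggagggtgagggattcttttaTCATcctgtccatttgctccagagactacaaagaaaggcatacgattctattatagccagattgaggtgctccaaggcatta
Cspg4 OLG peak, chr9:56853093-56853313: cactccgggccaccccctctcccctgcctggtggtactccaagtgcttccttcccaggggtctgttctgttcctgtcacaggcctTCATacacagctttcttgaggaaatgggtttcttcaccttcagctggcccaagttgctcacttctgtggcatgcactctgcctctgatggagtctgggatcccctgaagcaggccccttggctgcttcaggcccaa
Tnr OPC peak, chr1:159665240-159665448: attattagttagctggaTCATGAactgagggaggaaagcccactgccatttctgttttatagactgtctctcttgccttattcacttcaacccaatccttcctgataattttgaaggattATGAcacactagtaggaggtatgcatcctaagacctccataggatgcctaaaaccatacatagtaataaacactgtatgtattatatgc
Tnr OLG peak, chr1:159608043-159608263: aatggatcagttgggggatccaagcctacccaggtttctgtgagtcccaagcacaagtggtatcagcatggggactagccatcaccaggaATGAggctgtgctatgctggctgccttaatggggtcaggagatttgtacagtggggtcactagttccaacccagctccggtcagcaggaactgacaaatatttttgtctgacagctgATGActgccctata
Lhfpl3 OPC peak, chr5:22764007-22764215: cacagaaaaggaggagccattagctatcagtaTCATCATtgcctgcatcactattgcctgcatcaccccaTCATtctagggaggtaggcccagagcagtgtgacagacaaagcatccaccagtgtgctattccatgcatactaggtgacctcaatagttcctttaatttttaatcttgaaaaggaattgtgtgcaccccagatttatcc
Rlbp1 OPC peak, chr7:79371221-79371429: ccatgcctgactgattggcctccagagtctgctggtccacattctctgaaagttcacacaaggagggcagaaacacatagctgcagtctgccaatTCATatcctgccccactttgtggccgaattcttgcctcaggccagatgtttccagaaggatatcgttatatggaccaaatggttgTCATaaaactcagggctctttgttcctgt
None of these peaks holds TCATTCAT or its reverse complement, and the most TCAT or ATGA words in any peak shown is 3.

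In OPC, 8 of the 10 marker genes had a peak in the window, whereas 44.2% of all protein-coding genes did under the same rule. In OLG, 3 of the 10 had a peak, against a background of 24.6%. Gpr17, Cspg4 and Tnr had a peak in both lists, Pdgfra, Ptprz1, Lhfpl3, Vcan and Rlbp1 in the OPC list only, and Cspg5 and Pcdh15 in neither. No marker gene had a peak in the OLG list only. Over all genes, 16.2% had peaks in both lists, 28% in OPC only, 8.36% in OLG only and 47.4% in neither. Stage, library and calling differ together between the lists, and their parts in a presence in a single list cannot be told apart.

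The marker genes are long, but length adds to the window mainly in genes of more than 100 kb. The window of Vcan (87.2 kb) was 200 kb, as was that of Gpr17 (6.64 kb). The median length of the markers was 66.6 kb against 17.4 kb for all genes, and 4 of the 10 span 100 kb or more, as do 11.4% of all genes. Among all genes of that length 48.1% had a peak in OPC and 22.5% in OLG, and among shorter genes 43.7% and 24.8%. Of the 4 long markers, 3 had a peak in OPC and 1 in OLG, and of the 6 shorter ones, 5 and 2. Per length of window, the markers held 3.6 OPC peaks per Mb (95% exact Poisson interval 2.01 to 5.93, counting error only) over 4.17 Mb. The windows of all genes held 3.07 OPC peaks per Mb, within that interval, and the genome as a whole held 1.81. Pcdh15 alone made up 1550 kb of the 4.17 Mb with no peak of either list, so the density of the markers depends strongly on that gene. For OLG the markers held 0.719 peaks per Mb (0.148 to 2.1), against 1.38 in the windows of all genes and 0.685 in the genome. Windows of neighbouring genes overlap, so a peak near several genes enters the figures for all genes more than once. The figures for the genome count each peak once.

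**Figure D1:**
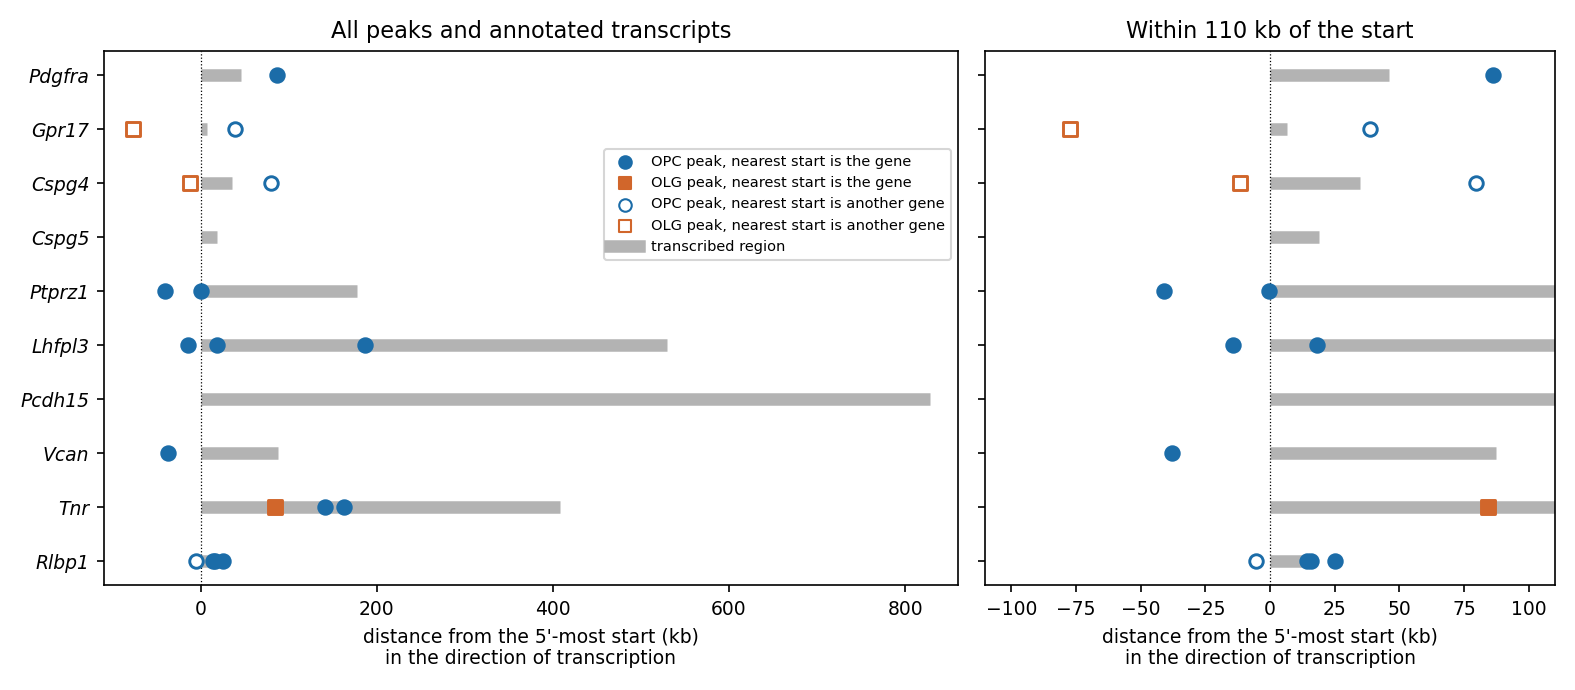
Peaks at the 10 marker genes by distance from the 5'-most start in kb, in the direction of transcription, over the whole range (left) and close to the start (right). Circles are OPC and squares OLG peaks, open where another gene's start is nearer, and grey bars are the annotated transcripts; the Ptprz1 peak lies at the start, 4 OPC peaks lie around Rlbp1, and Cspg5 and Pcdh15 have no peak in the window.

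Few markers had a peak at the start itself, as was so for all genes. In OPC, Ptprz1 was the 1 marker with a peak less than 1 kb from a start, where 8.21% of all genes had such a peak. In OLG no marker had a peak within 1 kb, against 4.08% of all genes. Within 10 kb there were 2 markers in OPC, Ptprz1 and Rlbp1, and 0 in OLG, where 12.8% and 6.5% of all genes had a peak. Within 1 kb of the start of any protein-coding transcript, of a marker or not, lay 3 of the 15 OPC peaks, those at Ptprz1, Sft2d3 and Fanci, and 0 of the 3 OLG peaks. By the same rule 35.5% of the OPC list and 47.8% of the OLG list were at promoters.

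Among the receptors, Pdgfra had its only peak in OPC and far from its start. The peak (chr5:75238178-75238386) was intergenic, 82383 bp downstream of the nearest Pdgfra start and 40067 bp past the end of the gene. Pdgfra was the nearest protein-coding start, with Kit, a related receptor tyrosine kinase gene, 336634 bp away on the other side. The nearest OLG peak to a Pdgfra start was 1149069 bp away, near the start of the circadian regulator gene Clock. Neither list had a peak in the body or promoter of Pdgfra.

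Gpr17 had a peak of each list, and both were nearer to another gene. The OPC peak (chromosome 18, 31911019 to 31911227) lay 38513 bp downstream of the Gpr17 start, in the coding exon of Sft2d3 and 701 bp from that gene's start. The OLG peak (chromosome 18, 32027020 to 32027240) lay 77494 bp upstream of Gpr17, in an intron of Myo7b, an unconventional myosin gene. The 2 peaks were on opposite sides of Gpr17, and their lists did not share a site there.

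Among the membrane proteoglycans, Cspg4, which encodes the NG2 antigen of progenitors, had a peak of each list. Its OPC peak (chr9:56944616-56944824) was intergenic, 79687 bp downstream of the start and 6158 bp from the start of Snupn. Its OLG peak (chr9:56853093-56853313) lay 11830 bp upstream, in an intron of Odf3l1 and 1240 bp from a start of that gene. Cspg4 had its nearest OLG peak closer to its start than its nearest OPC peak. Both Cspg4 peaks were nearer to another gene's start than to that of Cspg4, and they were 91517 bp apart.

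Cspg5, which encodes neuroglycan C, had no peak in its window in either list. Its nearest OPC peak was 127222 bp upstream, 774 bp from the start of the helicase gene Dhx30. Its nearest OLG peak was 368005 bp upstream, 199 bp from the start of the cell cycle phosphatase gene Cdc25a. With a window of 200 kb Cspg5 gained 2 OPC peaks and 0 OLG peaks.

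Ptprz1 had the peak closest to a start of all the markers. The OPC peak (chr6:22875057-22875265) was centred 341 bp upstream of the first Ptprz1 start and covered no exon. Printed above, it has a GC content of 52.5%, holds no TCAT, and holds 1 ACAAAG, the core recognised by SOX factors, and 1 GGGCGG, the GC box, counted on both strands. A second OPC peak (chr6:22834534-22834742) was 40864 bp upstream in intergenic sequence where Ptprz1 was again the nearest protein-coding start. The next protein-coding start on the far side, that of Fam3c, was 478395 bp from it. The nearest OLG peak to Ptprz1 was 1168065 bp away. Both Ptprz1 peaks were in the OPC list only.

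The membrane proteins Lhfpl3 and Pcdh15 are the longest genes of the list. LHFPL3 belongs to a family of small membrane proteins, and PCDH15 is a protocadherin best known from the tip links of hair cells. Lhfpl3, of 530 kb, had 3 OPC peaks and no OLG peak. The first (chr5:22731458-22731666) was 14497 bp upstream of the start, in an intron of the long non-coding RNA gene 6030443J06Rik. The second (chr5:22764007-22764215) was 18052 bp downstream of the start, in intron 1 of 3 of Lhfpl3 and in an intron of the same non-coding gene. The third (chr5:22932593-22932801) was also in intron 1, 186638 bp from the first start and 167855 bp before the internal second start. Lhfpl3 was the nearest protein-coding start for all 3, and they spanned 201135 bp.

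Pcdh15 had no peak of either list although its annotated gene covers 1550 kb, of which 828 kb lie within the transcripts of the basic set. From the starts of the basic set, its nearest OPC peak was 735189 bp upstream and its nearest OLG peak 1066260 bp downstream. The wider gene record begins far upstream of those starts, and the same OPC peak lay 12664 bp outside that record. These were the largest OPC distance of the 10 genes and, for OLG, a distance exceeded by those of Pdgfra and Ptprz1.

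Of the secreted matrix genes, Vcan, which encodes the lectican versican, had 1 OPC peak and no OLG peak. The peak (chr13:89780278-89780486) lay 37873 bp upstream of Vcan, in an intron of the DNA repair gene Xrcc4, though the nearest protein-coding start was that of Vcan. The nearest OLG peak to Vcan was 913836 bp away.

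Tnr, which encodes tenascin-R, was the 1 marker with peaks of both lists in its own gene body. All 3 lay in intron 1 of 22 of the longer transcript and at least 50911 bp from an exon of that transcript. The non-coding gene Gm10530 had a start 6596 bp from the OLG peak, and the OPC peak nearer to the first Tnr start also lay in an intron of Gm10530. The OLG peak (chr1:159608043-159608263) was 84384 bp downstream of the first start. The OPC peaks (chr1:159665240-159665448 and chr1:159686496-159686704) were 141575 and 162831 bp downstream of it, and 72166 and 50910 bp before the second, internal start. The OPC peaks were 21256 bp apart, and the OLG peak was 57191 bp from the nearer of them. From the first start, which is also the RefSeq start, the OLG peak of Tnr was nearer than its OPC peaks, and from the nearest start of any transcript an OPC peak was nearer. Tnr thus carried peaks of both stages in the same intron at different places.

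Rlbp1 encodes a retinaldehyde-binding protein of the visual cycle that is also used as a progenitor marker. It had the most peaks of the 10 genes, 4 in OPC and 0 in OLG. The upstream peak (chr7:79392341-79392549) was 5397 bp from the Rlbp1 start and 133 bp from that of its neighbour Fanci, a DNA repair gene. The other 3 lay past the end of Rlbp1, with the first (chr7:79372734-79372942) 2032 bp, the second (chr7:79371221-79371429) 3545 bp and the third (chr7:79361692-79361900) 13074 bp beyond it. The third was in the 3' UTR of Abhd2, an adjacent hydrolase gene. The 4 peaks spanned 30649 bp, with the closest pair 1513 bp apart. Among all genes, 3 had at least 4 OPC peaks within 26 kb of a start (0.0138%), namely Rlbp1, Ddx20 and Lekr1. That distance was chosen after the positions of the Rlbp1 peaks were seen, so the count is a description. Under the main rule of 100 kb or the gene body, 233 genes (1.07%) had at least 4 OPC peaks, Rlbp1 among them. The nearest OLG peak to Rlbp1 was 227044 bp away.

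**Figure D2:**
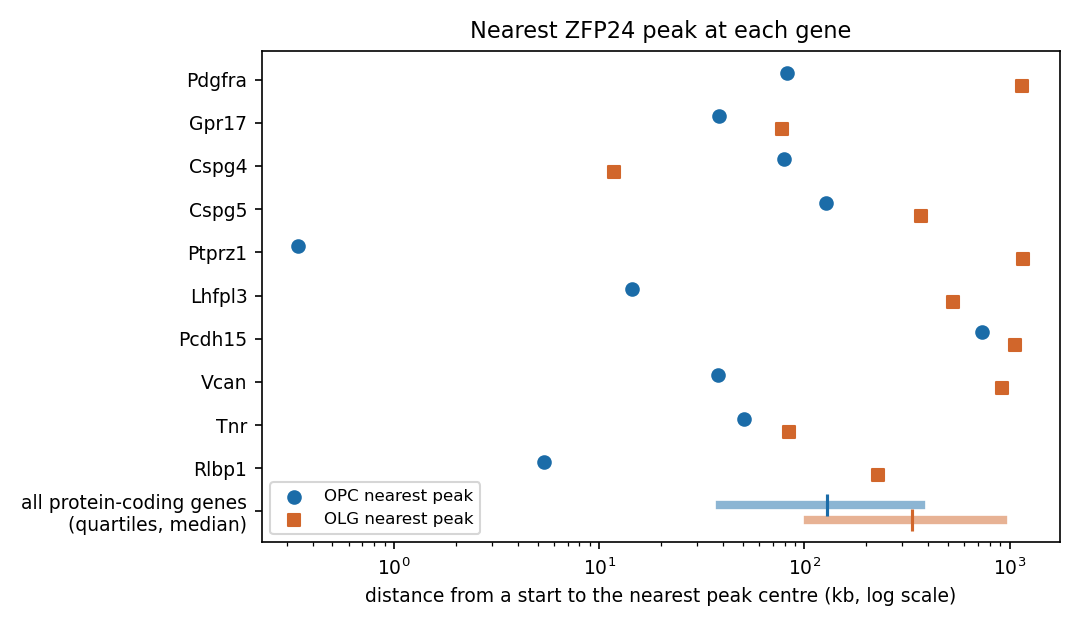
Distance in kb (log scale) from a transcript start to the nearest OPC peak (circles) and OLG peak (squares) for each marker gene, with the quartile range (bar) and median (tick) of all protein-coding genes in the bottom row. The OPC distances run from 0.341 kb at Ptprz1 to 735 kb at Pcdh15, and 9 of the 10 are below the median of 129 kb, Tnr by its internal second start only.

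Ordered by the nearest OPC peak, Ptprz1 (0.341 kb), Rlbp1 (5.4 kb) and Lhfpl3 (14.5 kb) came first. Vcan (37.9 kb), Gpr17 (38.5 kb) and Tnr (50.9 kb) followed, then Cspg4 (79.7 kb) and Pdgfra (82.4 kb), and last Cspg5 (127 kb) and Pcdh15 (735 kb). The place of Tnr rests on its internal second start, since from its RefSeq start the nearest OPC peak was 141575 bp away, beyond that of Cspg5. The median was 44.7 kb against 129 kb over all genes, whose quartiles were 38.6 and 371 kb. For OLG the median of the markers was 448 kb against 334 kb over all genes, with quartiles of 104 and 923 kb, and 4 of the 10 were nearer than the median gene. Each distance comes from a single list with no spread over replicates, so no statement can be made on whether neighbours in this order, such as Vcan and Gpr17, differ. The 15 OPC peaks were 0.323% (95% exact interval 0.181 to 0.532) of their list and the 3 OLG peaks 0.171% (0.0353 to 0.5) of theirs. These intervals overlap, and the difference was not tested.

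Overlap between the lists was counted at these genes. It was 0 of 15 for the OPC peaks and 5.47% in the OPC list, and 0 of 3 for the OLG peaks and 14.5% in the OLG list. With so few peaks, a count of 0 cannot be told from the share of the list. The closest the lists came was 57191 bp, in Tnr, for peaks that both belong to a marker. The OLG peak upstream of Gpr17 was 40829 bp from an OPC peak that lies outside the Gpr17 window.

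The tandem TCAT repeat was not found at any of the 18 peaks. A run of at least 12 bases, on either strand and in any phase, was searched in the 200 bp around each centre. It was in 0 of 15 OPC peaks, against 12.2% of the OPC list, and in 0 of 3 OLG peaks, against 5.71% of the OLG list. With a run of only 8 bases the counts were still 0 and 0, against 15.1% and 7.93% of the lists. A single TCAT on either strand was in 10 of the 15 OPC peaks and in 68.2% of the OPC list. The Lhfpl3 peak in the first part of intron 1 and the upstream of the 2 Tnr OPC peaks held 3 each, which was the most, while both Ptprz1 peaks held none. With so few peaks, the counts of 0 cannot be told from the shares of the lists, nor a share near that of the list from a lower one.

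The marker windows do contain the repeat, away from the peak centres. They held 28 tracts of at least 12 bases, of which 0 were within 100 bp of an OPC or OLG peak centre. Over the genome, 4.42% (95% exact interval 4.11 to 4.74) of 16888 such tracts had an OPC peak centre within 100 bp and 0.799% an OLG peak centre. For tracts of 24 bases or more the genome shares were 12.4% and 1.91%, and the windows held 4 such tracts. With so few tracts, a count of 0 cannot be told from the genome shares. The longest tract was 43 bases and 567605 bp from the nearest OPC peak. It lay in the wider gene record of Pcdh15, 167584 bp upstream of the nearest start of the basic set. A 29-base tract in Lhfpl3 lay 444 bp from the centre of its intronic OPC peak, outside the deposited interval. A 28-base tract lay 18683 bp upstream of Rlbp1 and 13286 bp from an OPC peak.

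These tracts are shown with 20 bases on either side and the repeat in capitals, on the plus strand of GRCm38.p6, beside the tract under the OPC peak of the matrix gene Ncan for contrast.
Pcdh15 tract with no peak, chr10:73654242-73654324: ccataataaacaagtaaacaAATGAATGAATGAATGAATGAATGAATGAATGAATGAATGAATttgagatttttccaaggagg
Lhfpl3 tract beside a peak, chr5:22763633-22763701: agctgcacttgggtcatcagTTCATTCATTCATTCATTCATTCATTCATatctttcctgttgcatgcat
Rlbp1 upstream tract with no peak, chr7:79405697-79405764: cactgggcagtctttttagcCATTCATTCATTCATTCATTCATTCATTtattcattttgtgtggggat
Ncan tract under an OPC peak, chr8:70121450-70121528: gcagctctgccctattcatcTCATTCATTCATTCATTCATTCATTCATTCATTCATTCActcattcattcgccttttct
The unbroken 43-base Pcdh15 tract has no listed peak, and the unbroken 39-base Ncan tract lies under an OPC peak. In the Ncan letters, TCAT words continue past the capitals after an interruption. The 39 bases are thus not the full extent of that repeat. Over the genome, 2.33% of tracts of 12 to 23 bases had an OPC peak centre within 100 bp. For tracts of 24 bases or more the share was 12.4%.

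A further 3 tracts lay close to a marker peak. A 13-base tract (chr9:56944873-56944885) was 159 bp from the centre of the Cspg4 OPC peak, a 16-base tract (chr13:89781133-89781148) was 759 bp from the Vcan OPC peak, and a 12-base tract (chr1:159609208-159609219) was 1061 bp from the Tnr OLG peak. Of the OPC peaks without the repeat, 3 of the 15 at markers had a tract within 1 kb of the centre, those at Cspg4, Lhfpl3 and Vcan, against 7.09% (6.32 to 7.92) of 4076 in the list. The distance of 1 kb was chosen after these positions were seen, and no test was made.

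The base composition of the marker peaks was close to that of peaks away from promoters. GC content in the 200 bp around the centre ran from 39% in Lhfpl3 and Tnr to 73% in the Sft2d3 exon near Gpr17 for OPC. The median was 49%, against 51.5% in the OPC list and 48% in its peaks away from promoters. The 3 OLG peaks had 52%, 53.5% and 56.5%, against a median of 59% in their list and 51.5% away from promoters. Sequence marked as repetitive in the reference made up over 50% of 2 OPC peaks, at 66% in the peak upstream of Lhfpl3 and 82% in a peak downstream of Rlbp1, where 7.8% of the OPC list had as much.

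**Figure D3:**
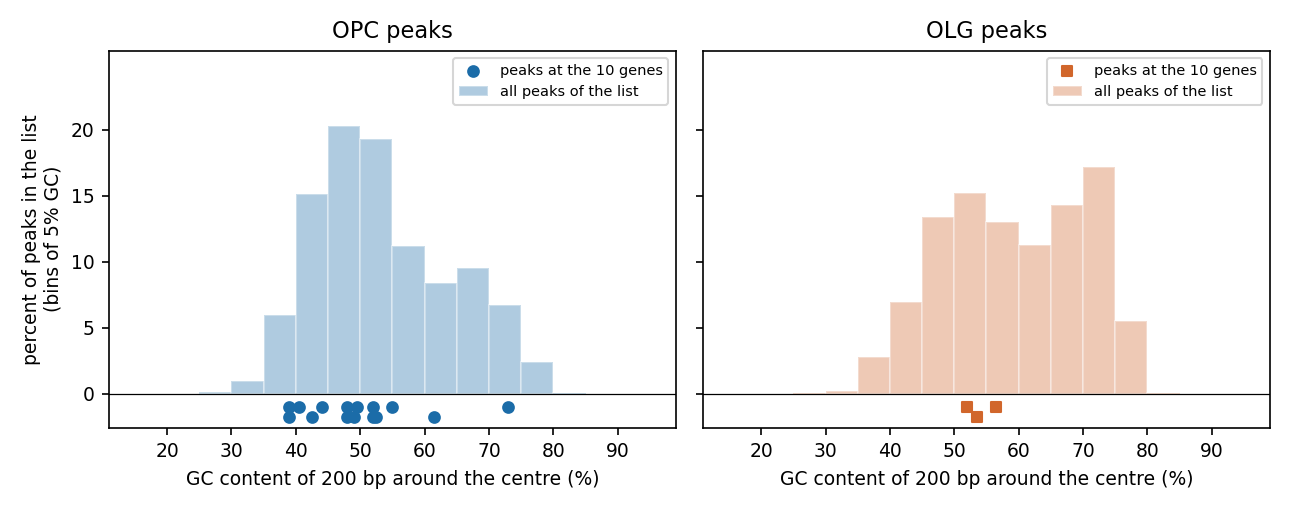
GC content of the 200 bp around each peak centre, as the percent of peaks in bins of 5% GC for the whole OPC list (left) and OLG list (right), with the peaks at the marker genes as points below the axis (stacked only to avoid overlap). The OPC marker peaks have a median of 49%, with the peak in the Sft2d3 exon at 73%.

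Other short words were counted in the same 200 bp, on both strands. The SOX core ACAAAG was in 5 of 15 OPC peaks at markers and 13.8% of the OPC list, and in 1 of 3 OLG peaks and 11.1% of the OLG list. The E-box CANNTG, the form read by OLIG factors, was in 9 of 15 and 63.1%, and in 3 of 3 and 56.2%. The GC box GGGCGG was in 2 of 15 and 14.4%, and in 0 of 3 and 24.9%. A match is only a description of the letters in the window.

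Lists of other genes in the same pathways, also chosen with earlier results of these data known, were read under the same rules. Of 25 other progenitor genes, 5 had a peak less than 10 kb from a start in OPC and 1 in OLG, where the shares of all genes were 12.8% and 6.5%. The OPC peaks included those at Olig1 (380 bp) and Olig2 (5281 bp), basic helix-loop-helix factors that specify the lineage, at Megf11 (1838 bp) and at Dscam (4739 bp), a cell adhesion gene. The OLG peak was in an intron of Sdc3 (2393 bp), a heparan sulphate proteoglycan gene. Within 100 kb or in the gene body, 15 and 9 of the 25 had a peak.

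Of 19 partners of the matrix proteins, 3 had a peak within 10 kb in OPC and 2 in OLG, where 12.8% and 6.5% of all genes did. Ncan, which encodes the lectican neurocan, had its OPC peak 648 bp upstream, with the 39-base TCAT tract printed above 32 bp from its centre. Hapln4, a link protein gene, had an OPC peak at 4703 bp, and Ptn, which encodes pleiotrophin, a ligand of PTPRZ1, at 666 bp. Bcan, which encodes brevican, had its OLG peak in a coding exon at 7157 bp. Cntn1, which encodes a contactin that binds PTPRZ1 and tenascin-R, had its OLG peak at 713 bp. For Ptprz1 and the ligand gene Ptn, OPC peaks were thus listed within 1 kb of both starts. Of the 19 partners, 2 had an OPC peak within 1 kb, Ncan and Ptn, where 8.21% of all genes did. Cntn1, whose product also binds PTPRZ1, had no OPC peak within 10 kb. The pairing of Ptprz1 with Ptn was not tested.

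Of 29 genes that build or cut chondroitin sulphate, 5 had a peak this close in OPC and 2 in OLG. These shares of 17.2% and 6.9% were near the 12.8% and 6.5% of all genes. The OPC peaks were at Csgalnact1 (62 bp) and Chsy1 (765 bp), enzymes of chain initiation and elongation, at Xylt1 (609 bp), the xylosyltransferase that starts the linker, at the sulphotransferase gene Ust (1033 bp) and at the protease gene Adamts1 (443 bp). The OLG peaks were at the sulphotransferase gene Chst3 (486 bp) and the linker enzyme gene B3gat3 (6657 bp).

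Of 21 PDGF ligand, receptor and adaptor genes, 5 had a peak this close in OPC and 2 in OLG. The shares of this list were 23.8% and 9.52%, against 12.8% and 6.5% of all genes, and were not tested. The OPC peaks were at Ptpn11 (271 bp), the SHP2 phosphatase gene, at Nck2 (1814 bp) and Gab1 (812 bp), adaptor genes, at Grb2 (7720 bp), an adaptor gene whose peak held a TCAT run of 24 bases, and at Pik3r1 (231 bp), a regulatory subunit gene of PI3 kinase. The OLG peaks were at the Src family kinase gene Fyn (494 bp) and at Pik3r1 (261 bp), and the Pik3r1 site was shared by both lists. No PDGF ligand or other PDGF receptor gene of the list had a peak within 10 kb, and Pdgfra itself had none.

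**Figure D4:**
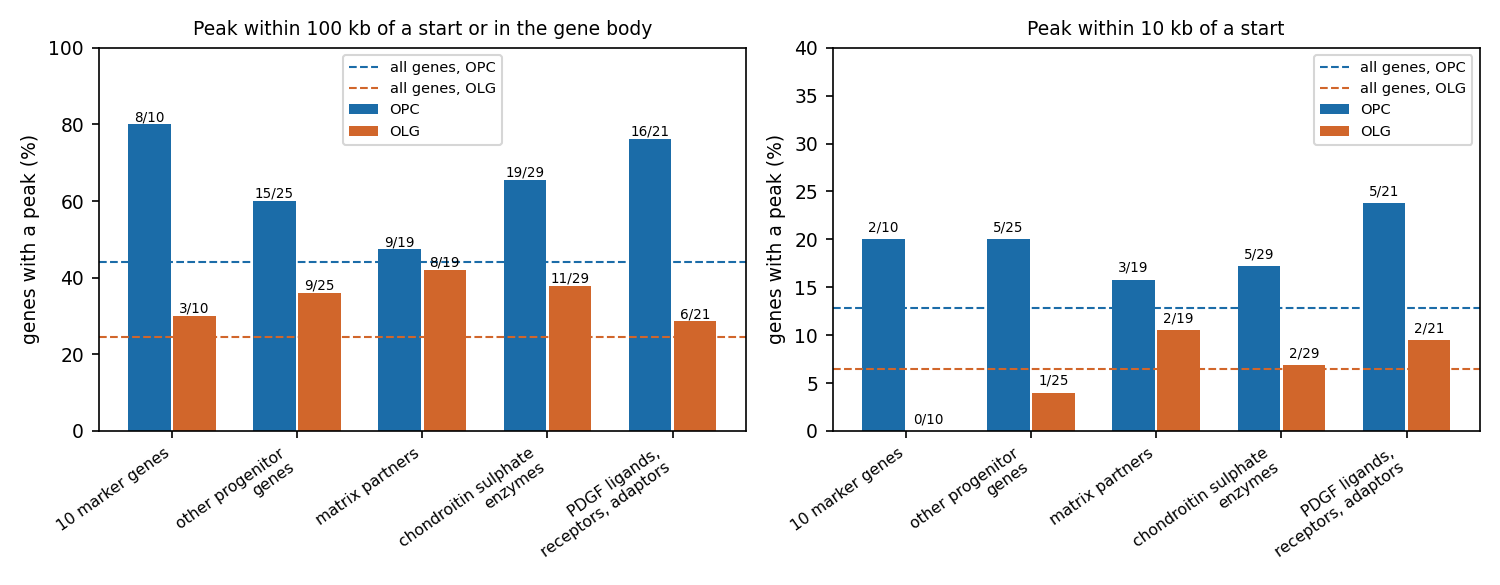
Percent of genes with an OPC or OLG peak (bars, with counts above) for the 10 markers and 4 lists of related genes, within 100 kb of a start or in the gene body (left) and within 10 kb of a start (right), with dashed lines for all protein-coding genes. The markers stand at 80% and 30% in the wide window and at 20% and 0% within 10 kb, and the PDGF list at 76.2% and 23.8% in OPC.

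In the wide window the shares with an OPC peak were 80% for the markers, 76.2% for the PDGF list, 65.5% for the chondroitin sulphate list, 60% for other progenitor genes and 47.4% for the matrix partners, against 44.2% of all genes. For OLG they were 30%, 28.6%, 37.9%, 36% and 42.1%, against 24.6%. The marker share in OPC was followed closely by that of the PDGF list, and the differences between lists were not tested.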

How the data were processed

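ZFP24 ChIP-seq libraries were sequenced from a single end at 75 nt, per the labels' protocols. The submitters' processing notes name BWA, HOMER 4.8.3 and the mm10 build. The options and threshold of peak calling, and the use made of the null and input libraries, were not given in those sources. The deposited lists hold 4 columns of positions and names with no score, so depth is unknown and intervals cover counting error only. Positions were made 1-based and read against the GRCm38.p6 genome, with transcripts of the GENCODE M21 basic set; 0 peaks ran past a chromosome end. Distances run from the peak centre to the nearest start of any basic transcript, upstream and downstream by gene strand. The background is all protein-coding genes on the 20 chromosomes with peaks. No test was made between lists, each from 1 library. Promoter sequences from RefSeq (GRCm38.p6) matched 8 of the 10 genes and gave other starts as an alternative. The rule for named genes took the 10 markers, members of 4 lists with a peak within 10 kb and the nearest starts to marker peaks, apart from a gene that is not reported here. Genes that flank a peak or lie at a peak outside the windows, and Ddx20 and Lekr1, were named after their values were seen. The members and lists were chosen with earlier results of these data known. Counting and repeat search were tested on simulated data, where 200 of 200 genes with planted peaks and 200 of 200 planted tracts were found. Python 3.11.15, numpy 2.4.6 and scipy 1.17.1 were used.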

Additional observations from a re-analysis of the deposited data

How the results depend on the processing

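With a window of 10 kb plus the gene body, 4 markers had 6 OPC peaks and 1 marker had 1 OLG peak. Restricting each list to the peaks whose name number is at or below the median of their chromosome, a stand-in for a stricter list since the meaning of that number is not stated, left 4 markers with 6 OPC peaks. The share of all genes under either setting is not given. The 44.2% above holds only for the full OPC list with the 100 kb window. With 200 kb the OLG peaks rose from 3 to 6. Within 10 kb of a start, 2 markers had an OPC peak. Searching 400 bp around the centre, 1 OPC peak, that at Cspg4, held a TCAT run of 12 bases or more. The other settings, namely 50 kb, no gene body, protein-coding transcripts only, any base of the peak, other overlap and repeat rules and, chosen after seeing the data, RefSeq starts, kept each count within 1.5 times its value. No paired analysis was possible because each group has 1 library, and no replicate could be left out. A marker with no listed peak may still have binding below the unknown threshold.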
